A study of Mus musculus with 18 samples.

Results

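The genes described here encode extracellular matrix proteins other than collagens, together with the enzymes that process the matrix, the TGF-beta ligands and 2 other genes of stromal cells. Of 41 listed genes, 39 had a transcript cluster of their own on the array, among 22180 genes measured in all, and 36 of these passed the filter on dim signals and were tested. Fbn1 and Loxl2 lacked such a cluster and were left out. Tnc, Lox and Timp1 had a mean below the filter's log2 value of 2.99 and were not tested. The rule that defines the list uses gene names and no measured value, but the names were picked with earlier results of these data known. Bgn and Nid1 had 2 clusters each, and the cluster with the higher mean was kept.

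Islets were hand-picked from mice of 6 and 16 weeks, and their total RNA was hybridised to Affymetrix Mouse Gene ST arrays, with 2 arrays in each of 8 groups. The obese groups were db/db mice, which lack the long form of the leptin receptor, on the C57BL/KsJ background, and ob/ob mice, which lack leptin, on the C57BL/6J background. Their lean age-matched counterparts were KsJ and 6J mice that the labels call control, without a genotype. All mice came from the colonies of 1 institute and ate freely. A smaller table from a related array design held 1 further db/db array and 1 further lean KsJ array of 16 weeks, called replicate 3 below. Whether the arrays of a group stand for separate animals or for pooled islets is not stated, so the p-values measure only the spread between these samples, which may be technical. The small number of arrays limits the precision.

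The islet matrix lies mainly around capillaries and at the islet rim. Endothelial cells, pericytes, fibroblasts and stellate cells make most of it, and stellate cells are the cells best known for depositing scar matrix in the pancreas. Collagens and laminins form the scaffold, small leucine-rich proteoglycans and matricellular proteins bind to it, metalloproteases and their inhibitors remodel it, and TGF-beta is the best-known inducer of many of these genes. In RNA from whole islets a lower signal from fewer stromal cells and one from less RNA per cell cannot be told apart.

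The labelled tissue was checked with the beta-cell hormone gene Ins2, which lay between 11.60 and 12.20 on all 16 arrays (log2 signal). Correlations between the arrays of a group, across genes, ran from 0.902 in lean KsJ islets of 16 weeks to 0.989 in lean 6J islets of 16 weeks. Some arrays stood apart in markers of other tissues. The acinar list (digestive enzymes, 15 of 18 genes measured) averaged 12.96 on lean KsJ 16-week replicate 2, against 8.32 to 12.08 on the other 15 arrays. The enterocyte list (gut epithelium, 10 genes) averaged 11.01 on lean 6J 6-week replicate 2 and 9.34 on db/db 16-week replicate 2, against 4.10 to 6.65 on the other 14. The Y-linked gene Uty was at 7.25 to 7.86 on 5 arrays, none of them db/db, and at 2.17 to 3.60 on 11. At 16 weeks it was high on lean KsJ replicate 1 and low on replicate 2, so sex was not balanced against db/db islets, and it was low on all arrays of the 16-week 6J groups. At 6 weeks it was low on both db/db arrays and high on 1 of 2 lean KsJ arrays, and it was high on both ob/ob arrays and on 1 of 2 lean 6J arrays, so sex was not balanced there either. In the sample titles of these 16 arrays 1 code runs through all KsJ arrays and another through all 6J arrays. Strain and what the codes mark thus cannot be told apart.

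In islets of 16-week db/db mice 4 of the 36 genes were called higher than in lean KsJ islets: Postn, Bgn, Mgp and Timp2. None of the 36 was called lower. Below, rose and fell mean called higher or lower between the compared groups, not a change with age. Calls were made at adjusted p-values below 0.05 in a limma fit over all 16 arrays, adjusted over all 15526 genes tested. By that rule 5.32% of all genes were higher and 0.477% were lower. In all, 31 of the 36 had a log2 change above 0, against 65.7% of all genes, and their median change was 0.82 against 0.18. Under quantile normalization the 2 medians were 0.52 and -0.02, and under median centring 0.48 and -0.16.

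Postn encodes periostin, a matricellular protein secreted by fibroblasts and activated stellate cells. Its log2 signal was 6.05 and 6.60 in db/db islets of 16 weeks, against 4.53 and 3.68 in lean KsJ islets. Both db/db arrays lay above both lean arrays, a log2 change of 2.22 ± 0.28 (SE, n = 2 arrays per group; limma, adjusted p = 0.009887). At 6 weeks Postn was at 6.22 and 6.02 in db/db islets, against 5.95 and 5.87 in lean islets, so the 16-week db/db arrays were near the 6-week levels and the 16-week lean arrays were the 2 lowest of the 16.

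Bgn encodes biglycan, a small leucine-rich proteoglycan that binds collagen and TGF-beta. It was at 9.48 and 10.66 in db/db islets of 16 weeks, against 8.70 and 7.85 in lean KsJ islets. The groups did not overlap, and the log2 change was 1.79 ± 0.36 (limma, adjusted p = 0.02409). With the mean over its 2 clusters the change was 1.28, also called.

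Mgp encodes matrix Gla protein, an inhibitor of calcification made by smooth muscle and other stromal cells. It was at 8.54 and 8.72 in db/db islets of 16 weeks, against 7.90 and 7.45 in lean KsJ islets, a log2 change of 0.96 ± 0.19 (limma, adjusted p = 0.02552). Timp2 encodes a secreted inhibitor of metalloproteases that also takes part in the activation of MMP2. It was at 8.33 and 8.77 in db/db islets, against 7.72 and 6.86 in lean islets, a log2 change of 1.26 ± 0.29 (limma, adjusted p = 0.03526). Neither gene's groups overlapped.

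The count of 4 depended on the scaling, on the variance model and on single arrays. It was 1 with quantile normalization, 2 with median centring, and 0 with array weights or with the 2 compared groups fitted alone. When 1 array is left out, 1 array stands for its group and is assumed to vary like the other groups, so such values describe that array. The count moved most with lean KsJ replicate 2 alone, the array lowest for the list and highest in acinar markers. Without the 3 arrays rich in acinar or enterocyte RNA the comparison is 1 db/db array against 1 lean array, and the change of Postn was 1.52. These 2 arrays also differed in sex, with Uty at 2.29 on the db/db array and 7.86 on the lean array. Their enterocyte means differed too, at 6.65 on the db/db array and 4.16 on the lean array.

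**Figure D1:**
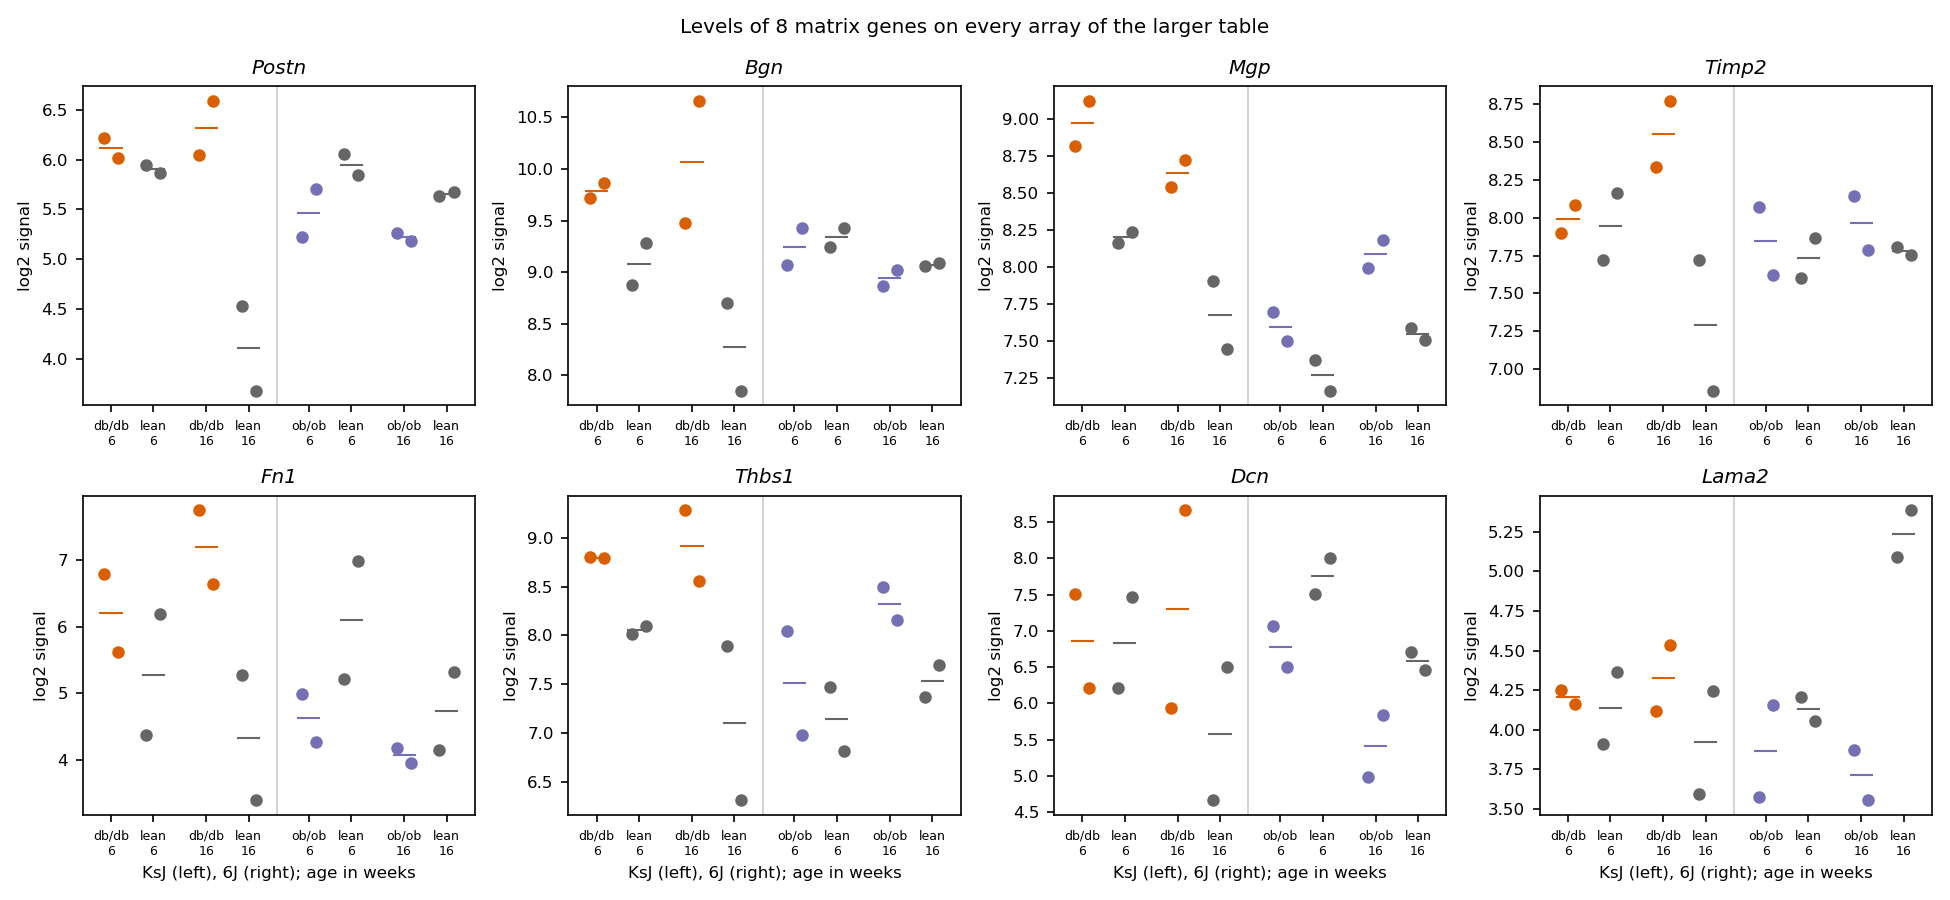
Log2 signal of 8 genes on each of the 16 arrays (vertical axis), with 1 point per array, a short line at the mean of each group and the groups side by side along the horizontal axis. For Postn, Bgn, Mgp and Timp2 both db/db arrays of 16 weeks lie above both lean KsJ arrays, and for Lama2 both ob/ob arrays of 16 weeks lie below both lean 6J arrays.

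The 250 bases upstream of the annotated starts are shown for called genes that have an entry in the RefSeq promoter table (GRCm38.p6). They run 5′ to 3′ along the gene's own strand and end just before the start. Capitals mark a TATA box (TATAAA), a SMAD-binding element (CAGAC), an AP-1 site (TGANTCA) or a GC box (GGGCGG), searched on both strands. The E-box (CANNTG) was searched too and is not marked. The first Postn start has the window chr3:54359017-54359266 and the second chr3:54360857-54361106, both on the plus strand. The Bgn window is chrX:73483351-73483600 on the plus strand, and the Timp2 window is chr11:118355412-118355661 on the minus strand.
Postn, first start: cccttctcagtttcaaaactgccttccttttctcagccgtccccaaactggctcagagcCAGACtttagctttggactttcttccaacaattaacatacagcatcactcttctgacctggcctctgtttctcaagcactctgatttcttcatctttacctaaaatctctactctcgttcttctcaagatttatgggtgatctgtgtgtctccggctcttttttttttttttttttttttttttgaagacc
Postn, second start: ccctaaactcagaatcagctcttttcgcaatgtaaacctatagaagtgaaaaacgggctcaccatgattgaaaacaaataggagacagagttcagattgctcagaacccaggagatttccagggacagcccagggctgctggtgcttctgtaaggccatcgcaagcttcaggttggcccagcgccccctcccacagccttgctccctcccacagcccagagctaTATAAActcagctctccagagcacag
Bgn: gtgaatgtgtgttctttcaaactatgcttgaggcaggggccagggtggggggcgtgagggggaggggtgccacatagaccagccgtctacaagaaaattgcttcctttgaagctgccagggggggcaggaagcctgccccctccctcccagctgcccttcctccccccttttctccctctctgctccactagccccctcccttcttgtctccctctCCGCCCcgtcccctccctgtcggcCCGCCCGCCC
Timp2: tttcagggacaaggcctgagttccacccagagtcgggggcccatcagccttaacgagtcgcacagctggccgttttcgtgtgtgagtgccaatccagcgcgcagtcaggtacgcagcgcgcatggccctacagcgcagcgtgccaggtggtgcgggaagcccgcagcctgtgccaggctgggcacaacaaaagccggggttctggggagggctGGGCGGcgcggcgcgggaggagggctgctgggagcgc

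The second Postn start had a TATA box at position -26 and the first had a SMAD-binding element at position -191, counted from the start. The Bgn window held 3 matches to the GC box, of which 2 overlap, and the Timp2 window held 1. A TATA box was found in 12.4% of all 32851 promoters of this length, a SMAD-binding element in 42.2%, an AP-1 site in 6.75%, an E-box in 66.2% and a GC box in 32.7%. The 24 genes of the list with an entry have 29 promoters in that table, of which 6 held a TATA box, 13 a SMAD-binding element, 19 an E-box, 19 a GC box and 0 an AP-1 site. These matches describe the letters of the windows only, and which Postn start is used in islets was not tested.

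Among the other matricellular and adhesive genes, 6 of 7 tested in this role, Postn included, were above 0 in 16-week db/db islets (median log2 change 1.37), 6 of 7 under quantile normalization and 5 of 7 under median centring. Thbs1, which encodes thrombospondin 1, an activator of latent TGF-beta and an inhibitor of vessel growth, was at 9.28 and 8.55 in db/db islets, against 7.89 and 6.31 in lean KsJ islets. The groups did not overlap, but the change of 1.82 ± 0.48 missed the threshold (limma, adjusted p = 0.05175). Fn1, which encodes fibronectin, was at 7.74 and 6.64 in db/db islets, against 5.27 and 3.39 in lean islets, with a change of 2.87 ± 0.82 (limma, adjusted p = 0.06531). The 2 lean arrays of Fn1 differed by more than the 2 db/db arrays did. Tgfbi, a TGF-beta-induced adhesive protein, was at 7.76 and 6.94 in db/db islets, against 6.20 and 5.77 in lean islets. Sparc, a collagen-binding glycoprotein, and Thbs2, the second thrombospondin, overlapped between the groups. Vcan, the large proteoglycan versican, was at 3.37 and 3.31 in db/db islets, against 3.62 and 4.46 in lean islets, with a change of -0.70 that did not pass the test.

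All 4 small leucine-rich proteoglycans, which bind collagen fibrils and set their width, were above 0 (median 1.45). Lum, lumican, was at 3.12 and 4.57 in db/db islets, against 2.25 and 3.09 in lean islets, and the lean mean lay below the filter's value. Ogn, osteoglycin, was at 4.39 and 6.39 in db/db islets, against 4.25 and 4.36 in lean islets. Dcn, decorin, was at 5.93 and 8.66 in db/db islets, against 4.66 and 6.50 in lean islets, and its groups overlapped. In this family db/db replicate 2 was the higher db/db array for every gene.

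The elastic fibre and microfibril genes did not share a direction. Of 6 tested, 3 were above 0, with a median of 0.14 that lay below the median of all genes and was -0.07 under quantile normalization and -0.20 under median centring. Eln, which encodes elastin, was at 3.51 and 5.29 in db/db islets, against 3.68 and 5.31 in lean islets. Fbln1, a fibulin of elastic fibres and basement membranes, was at 3.95 and 5.85 in db/db islets, against 3.47 and 4.92 in lean islets. Mfap2, a microfibril protein, was at 4.97 and 5.57 in db/db islets, against 5.15 and 6.09 in lean islets. These 3 overlapped between the groups, as did Fbln5 and Mfap5. Fbln2, a fibulin of vessel walls, was at 5.69 and 5.45 in db/db islets, against 5.31 and 3.82 in lean islets, without overlap. None of the 6 was called.

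Of the genes for crosslinking and collagen processing, Loxl1, a lysyl oxidase of elastic fibres, was at 4.79 and 5.53 in db/db islets, against 4.20 and 3.65 in lean islets (change 1.23 ± 0.35; limma, adjusted p = 0.06664). Pcolce, an enhancer of procollagen cleavage, was at 4.09 and 5.58 in db/db islets, against 3.93 and 3.69 in lean islets. Serpinh1, the collagen chaperone HSP47, was at 6.09 and 6.13 in db/db islets, against 6.42 and 5.07 in lean islets, and here the 2 db/db arrays lay between the lean ones.

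All 4 tested metalloprotease and inhibitor genes were above 0 (median 1.07), with Timp2 alone called. Mmp2, the gelatinase of stromal cells, was at 4.66 and 6.08 in db/db islets, against 3.58 and 4.26 in lean islets (change 1.45 ± 0.46; limma, adjusted p = 0.08996). Mmp14, the membrane-bound activator of MMP2, was at 6.47 and 6.77, against 6.09 and 5.39 (change 0.88 ± 0.29, adjusted p = 0.09997). Timp3, an inhibitor that stays bound to the matrix, was at 7.74 and 8.31 in db/db islets, against 7.54 and 7.01 in lean islets (change 0.75 ± 0.27, adjusted p = 0.1169). None of these 3 genes overlapped between the groups.

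Of the TGF-beta ligands, Tgfb1 was at 5.78 and 6.50 in db/db islets, against 5.28 and 5.47 in lean islets (change 0.76 ± 0.24; limma, adjusted p = 0.09036). Tgfb3 was at 7.07 and 6.91 in db/db islets, against 6.32 and 5.66 in lean islets. Tgfb2 was at 4.87 and 4.69 in db/db islets, against 4.95 and 4.90 in lean islets, with the lean arrays the higher ones. None of the 3 was called.

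All 7 basement membrane genes were above 0 (median 0.47), against 6 of 7 under quantile normalization and under median centring, and none was called. Nid1, nidogen, which links laminin to collagen IV, was at 8.03 and 8.52 in db/db islets, against 7.75 and 6.78 in lean islets (change 1.01 ± 0.30; limma, adjusted p = 0.07202). Lamc1, the gamma chain of most laminins, was at 7.39 and 7.29, against 7.02 and 6.37. The groups of Nid1 and Lamc1 did not overlap. Lama4, the alpha chain of endothelial basement membranes, was at 5.90 and 5.66 in db/db islets, against 6.13 and 5.36 in lean islets, with a change of 0.03. Hspg2, perlecan, and Nid2, the second nidogen, also overlapped, as did the laminin chains Lama2 and Lamb1. Thy1, a surface protein of fibroblasts, was at 4.44 and 5.97 in db/db islets, against 4.79 and 3.75 in lean islets, and overlapped too.

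Over the 36 genes, 19 had both db/db arrays above both lean arrays, against 32.8% of all genes, and 2 had both below, against 10.4%. At an unadjusted p below 0.05, 16 were higher, against 20.3% of all genes, and 0 were lower, against 4.26%. The arrays of each group differed for these genes. In db/db islets of 16 weeks replicate 2 was higher than replicate 1 for 26 of the 36, and 12 differed by more than 1 on the log2 scale, against 4.90% of all genes. In lean KsJ islets of 16 weeks replicate 2 was lower for 25, and 10 differed by more than 1, against 19.2% of all genes.

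**Figure D2:**
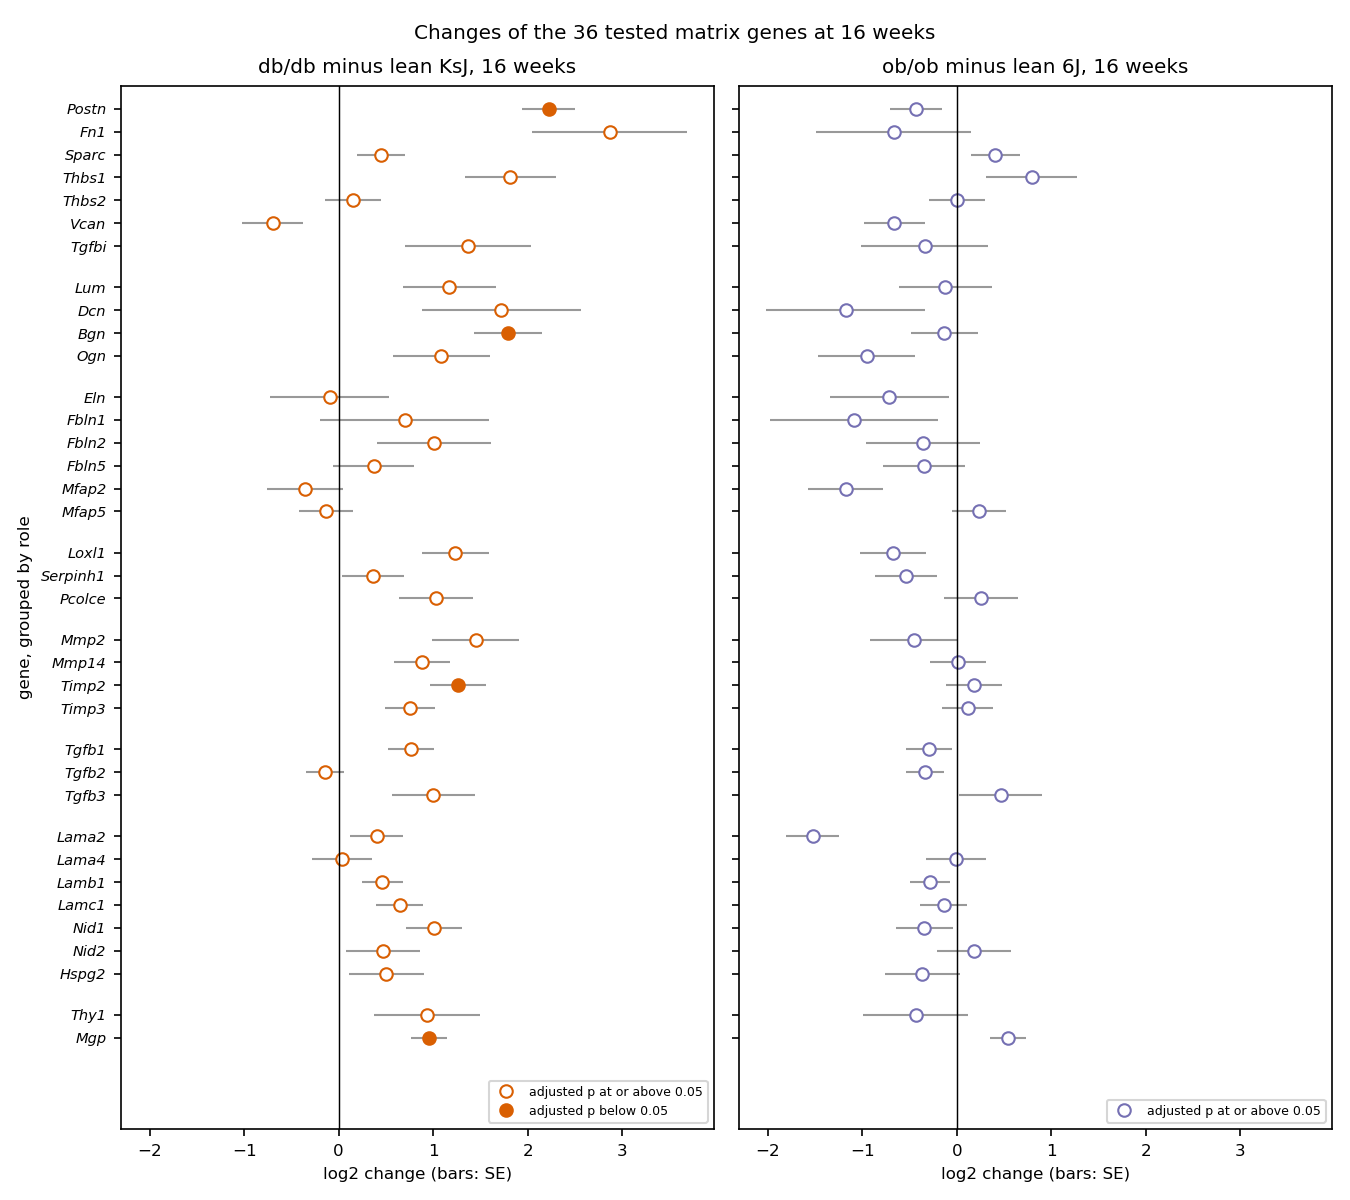
Log2 change with its standard error for the 36 tested genes at 16 weeks, in db/db over lean KsJ islets (left) and ob/ob over lean 6J islets (right), ordered by role, with called genes marked. In db/db islets 31 of 36 lie above 0 and 4 are called, and in ob/ob islets 10 of 36 lie above 0 and 0 are called.

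At 6 weeks none of the 36 genes was called between db/db and lean KsJ islets (limma, 0.0258% of all genes called). At an unadjusted p below 0.05, 1 was higher, Mgp, against 3.9% of all genes, and 0 were lower, against 4.62%. Mgp was at 8.82 and 9.13 in db/db islets, against 8.17 and 8.24 in lean KsJ islets, a change of 0.77 ± 0.19 (limma, adjusted p = 0.4576). Bgn was at 9.72 and 9.86, against 8.88 and 9.28 (0.71 ± 0.36, adjusted p = 0.6243). Thbs1 was at 8.80 and 8.80, against 8.01 and 8.10. None of these 3 genes overlapped between the groups, as for 10 of the 36 in the higher direction (21.9% of all genes) and 3 in the lower (27.9%). Timp2 was at 7.90 and 8.08 in db/db islets, against 7.72 and 8.16 in lean islets, and overlapped. The median change over the 36 was 0.13, against -0.02 over all genes.

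The change of the db/db difference with age was tested directly, as the 16-week effect minus the 6-week effect. No gene of the list was called (limma, 0.00644% of all genes called), and 4 were higher at an unadjusted p below 0.05, against 10.9% of all genes, with 0 lower, against 2.22%. Their differences of effects were 2.01 ± 0.39 for Postn (adjusted p = 0.3614), 1.21 for Timp2, 1.28 for Loxl1 and 1.005 for Timp3. The number called was not the same with lean KsJ 16-week replicate 2 standing alone for its group.

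Ages were also compared within each genotype, beginning with lean KsJ islets. Of the 36 genes, 20 had both 16-week lean KsJ arrays below both 6-week arrays, against 44.1% of all genes, and 0 had both above, against 8.03%. None was called (limma, 0% of all genes called), and 14 were lower at an unadjusted p below 0.05, against 23.4% of all genes, with 0 higher, against 2.89%. Postn was at 4.53 and 3.68 at 16 weeks, against 5.95 and 5.87 at 6 weeks, a change of -1.81 ± 0.28 (limma, adjusted p = 0.08527). Nid1 was at 7.75 and 6.78 at 16 weeks, against 8.57 and 8.59 at 6 weeks, and Timp3 at 7.54 and 7.01, against 8.39 and 8.53. The number called moved when replicate 2, the acinar-rich array, stood alone for the 16-week group and its spread was taken from the other groups. All genes together had a median change of -0.26 in this comparison, which was 0.10 under median centring, and the 36 genes had -0.75 and -0.38.

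In db/db islets no gene of the list was called between 16 and 6 weeks (limma, 0.0644% of all genes called), with 3 lower at an unadjusted p below 0.05, against 4.63% of all genes, and 0 higher, against 2.98%. Sparc was at 6.94 and 7.85 at 16 weeks, against 8.02 and 8.39 at 6 weeks (-0.81 ± 0.26; limma, adjusted p = 0.4559). Nid2 was at 5.39 and 5.55 at 16 weeks, against 6.25 and 6.46 at 6 weeks. Of the 36 genes 18 were above 0 and 18 below in db/db islets, against 7439 and 8087 of all genes. Their median was -0.02, against -0.015 over all genes. Group means at 16 and 6 weeks were 6.32 and 6.12 for Postn, 10.07 and 9.79 for Bgn, 8.55 and 7.99 for Timp2, and 8.63 and 8.97 for Mgp. In ob/ob islets 0 were called and 1, Mgp, was higher at an unadjusted p below 0.05, against 1.71% of all genes, with 0 lower, against 2.18%. In lean 6J islets 0 were called and 1, Lama2, was higher at that p, against 1.13%, with 0 lower, against 1.73%. In both of these limma comparisons 0% of all genes were called.

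In 16-week ob/ob islets none of the 36 genes was called against lean 6J islets (limma, 0.0708% of all genes called). In all, 10 were above 0 and the median was -0.34, against -0.03 over all genes. Under quantile normalization and median centring the members' medians were -0.26 and -0.28. At an unadjusted p below 0.05, 1 was higher, against 6.73% of all genes, and 2 were lower, against 9.82%. Both ob/ob arrays lay above both lean 6J arrays for 8 genes, against 28.2% of all genes, and below for 17, against 33.3%.

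Lama2, the laminin alpha chain best known from muscle and nerve basement membranes, had the smallest p in this comparison. It was at 3.87 and 3.55 in ob/ob islets of 16 weeks, against 5.09 and 5.39 in lean 6J islets, a change of -1.53 ± 0.28 (limma, adjusted p = 0.06219). The groups did not overlap, and the 2 lean 6J arrays were the 2 highest of the 16. Lama2 was called when only the 2 compared groups were fitted (adjusted p = 0.02567), with array weights (0.001672) and without the 3 arrays rich in acinar or enterocyte RNA (0.04894). Mfap2 was at 5.24 and 5.29 in ob/ob islets, against 6.63 and 6.25 in lean islets, a change of -1.18 ± 0.40 (limma, adjusted p = 0.1872). Ogn was at 4.22 and 4.50, against 5.28 and 5.35, and Serpinh1 at 5.77 and 5.60, against 6.19 and 6.25. Mgp ran the other way, at 7.997 and 8.18 in ob/ob islets, against 7.59 and 7.51 in lean islets (0.54 ± 0.19, adjusted p = 0.1995).

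Of the genes called in db/db islets, Mgp was also higher in ob/ob islets of 16 weeks, with the values given above, and was not called there. Postn was at 5.26 and 5.18 in ob/ob islets, against 5.63 and 5.67 in lean 6J islets. Bgn was at 8.86 and 9.02, against 9.06 and 9.09, a change of -0.13 ± 0.36. Postn and Bgn thus had the ob/ob arrays below the lean ones, as did 33.3% of all genes. Timp2 was at 8.14 and 7.78, against 7.81 and 7.75, a change of 0.18, and overlapped. Thbs1 was at 8.50 and 8.15 in ob/ob islets, against 7.37 and 7.70 in lean islets, with the ob/ob arrays above. Fn1 was at 4.18 and 3.95, against 4.14 and 5.32, and overlapped.

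At 6 weeks no gene of the list was called between ob/ob and lean 6J islets (limma, 0% of all genes called). At an unadjusted p below 0.05, 1 was higher, Tgfb3, against 3.17% of all genes, and 1 was lower, Fbln1, against 2.98%. Both ob/ob arrays lay above both lean arrays for 3 genes, against 19.9% of all genes, and below for 8, against 16.8%. Tgfb3 was at 6.89 and 5.71 in ob/ob islets, against 5.53 and 5.05 in lean islets (1.01 ± 0.44; limma, adjusted p = 0.7914). Fbln1 was at 4.07 and 4.39 in ob/ob islets, against 4.75 and 7.98 in lean islets, a change of -2.13 ± 0.89, with the lean array rich in enterocyte markers far above the other. That array was also the highest of the 16 for Tgfbi, at 8.80, and whether its enterocyte markers take part in these values was not tested.

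The db/db effect and the ob/ob effect at 16 weeks were set against each other in 1 test. No gene of the list was called (limma, 0.0129% of all genes called), and 13 were higher in that difference at an unadjusted p below 0.05, against 12.9% of all genes, with 0 lower, against 2.67%. Postn had the smallest p, with a difference of effects of 2.65 ± 0.39 (limma, adjusted p = 0.05803). The differences were 1.93 ± 0.39 for Lama2 (adjusted p = 0.1427), 1.93 ± 0.51 for Bgn and 1.91 ± 0.50 for Loxl1 (both 0.1669). The number of calls moved when lean KsJ 16-week replicate 2 stood alone for its group. At 16 weeks 6 genes had both db/db arrays above both lean KsJ arrays and both ob/ob arrays below both lean 6J arrays, namely Postn, Bgn, Ogn, Loxl1, Tgfb1 and Nid1, against 7.37% of all genes. None had the opposite pattern, against 1.66%. Mgp was the one gene of the list with both obese arrays above both lean arrays in both models at both ages, against 3.31% of all genes, and none had them below throughout, against 1.09%.

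Between the lean strains 2 of the 36 genes fell in 16-week KsJ islets against 6J islets, against 3.65% of all genes, and 0 rose, against 0.47%. Postn was at 4.53 and 3.68 in lean KsJ islets, against 5.63 and 5.67 in lean 6J islets (-1.55 ± 0.28; limma, adjusted p = 0.01879). Lama2 was at 3.60 and 4.25, against 5.09 and 5.39 (-1.32 ± 0.28, adjusted p = 0.03419). The count moved with each array of these groups left out, with 1 array standing for the group each time. At 6 weeks none was called (limma, 0.258% of all genes called), and 1, Mgp, was higher at an unadjusted p below 0.05, against 3.39% of all genes, with 0 lower, against 3.26%. In 6-week islets Mgp was at 8.17 and 8.24 in lean KsJ mice, against 7.37 and 7.17 in lean 6J mice (0.93 ± 0.19, adjusted p = 0.145). Postn was at 5.95 and 5.87 in lean KsJ islets of that age, against 6.05 and 5.85 in lean 6J islets, and overlapped. Over the 8 group means, 18 of the 36 genes were lowest in lean KsJ islets of 16 weeks, as were 41.2% of all genes, and 12 were lowest in ob/ob islets of 16 weeks, against 11.6% of all genes.

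The smaller table gave 1 db/db and 1 lean KsJ array of 16 weeks, so its differences have no replicate check and no test. Of the 36 genes, 32 were higher on the db/db array, against 56.6% of all genes, and the median difference was 0.54, against 0.09. A difference above 1 was found for 10, against 5.98% of all genes, and below -1 for 0, against 2.24%. Postn was at 6.42 on the db/db array, against 4.63 on the lean array. Mgp was at 8.47, against 6.78, Bgn at 11.32, against 9.96, and Thbs1 at 7.42, against 5.94. Timp2 was at 8.04, against 7.22, a difference of 0.82. Mfap5, a microfibril protein, had the largest difference of the list, with 5.24 on the db/db array and 3.42 on the lean array, but in the larger table it was at 3.44 and 4.51 in db/db islets, against 4.09 and 4.11 in lean islets. Mmp2 was at 5.58 on the db/db array, against 5.86 on the lean array, on the other side of 0 from the larger table. In all, 31 of the 36 had the same sign in both tables, in which 31 and 32 of them were above 0. The share of all genes with the same sign was not counted. The db/db array of this pair had an enterocyte mean of 9.74, against 4.33 on the lean array, and the acinar means were 12.24 and 12.98. What part these cells have in the pair's values was not tested.

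**Figure D3:**
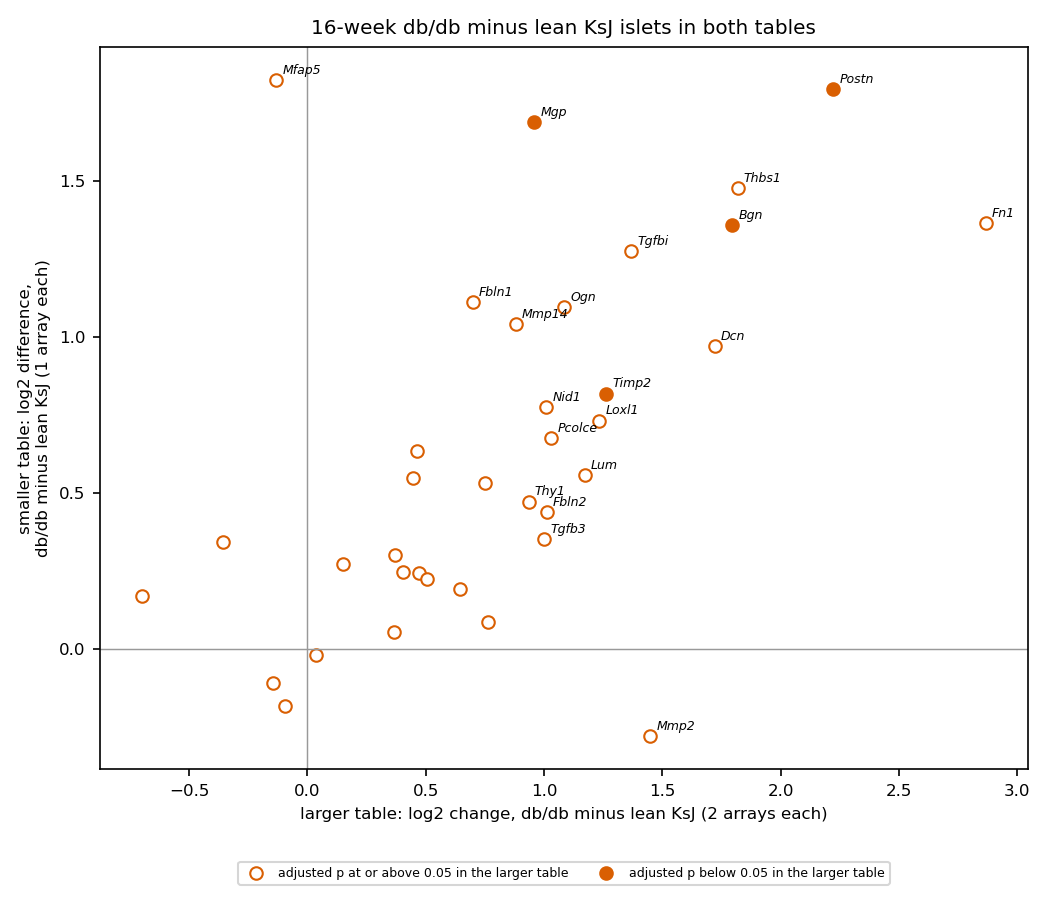
Difference between db/db and lean KsJ islets of 16 weeks for the 36 tested genes, on the log2 scale, with the larger table (2 arrays per group) on the horizontal axis and the smaller table (1 array per group) on the vertical axis. Of the 36 points, 31 have the same sign on both axes, with most points above 0 on each axis, and Postn stands at 2.22 and 1.80.

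Markers of several other cell types were higher in the 16-week db/db comparison, in which 5.32% of all genes rose and 65.7% were above 0. All 10 macrophage markers were above 0 and 3 rose, and their mean was 6.61 and 6.11 in db/db islets, against 5.48 and 4.85 in lean KsJ islets. All 10 endothelial markers were above 0 and 2 rose, with means of 7.34 and 7.66, against 7.12 and 6.33. Of 10 stellate and pericyte markers 9 were above 0 and 1 rose, with means of 5.72 and 6.14, against 5.34 and 5.38. The pericyte gene Pdgfrb was at 6.09 and 7.62, against 5.93 and 5.69, and Rgs5 at 10.66 and 10.61, against 9.73 and 8.95. Over the whole stellate and pericyte list the changes ran from -1.06 to 1.51, with a median of 0.38. Of 7 tested fibroblast markers 6 were above 0 and 0 rose, with means of 4.40 and 5.16, against 3.96 and 4.44. The median was 1.17 for macrophage, 0.71 for endothelial and 0.58 for fibroblast markers, against 0.18 for all genes. The 36 genes themselves averaged 5.84 and 6.41 in db/db islets, against 5.46 and 5.15 in lean islets. Of 8 smooth muscle markers 6 were above 0 (median 0.74), of 6 mesothelial markers 2 (median -0.13) and of 6 tested ductal markers 3 (median 0.17), with 0, 0 and 1 called. What part the macrophage, endothelial and stromal markers have in the result was not tested.

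Enterocyte means were 6.65 and 9.34 in db/db islets of 16 weeks, against 4.16 and 6.21 in lean KsJ islets, and all 10 markers were above 0, with 1 called. Acinar means were 11.06 and 12.08, against 10.44 and 12.96, with 6 of 15 markers above 0 and 0 called. With both means as covariates, Postn stood at 2.31, Bgn at 1.68, Timp2 at 1.22 and Mgp at 1.06, all called. With a term for Xist, the RNA of the inactive X chromosome, their changes were 2.41, 1.86, 1.28 and 1.05, in the same order. Both fits called more of all genes than the main fit did. Endocrine means were 12.35 and 12.34 in db/db islets, against 12.56 and 12.21 in lean islets.

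**Figure D4:**
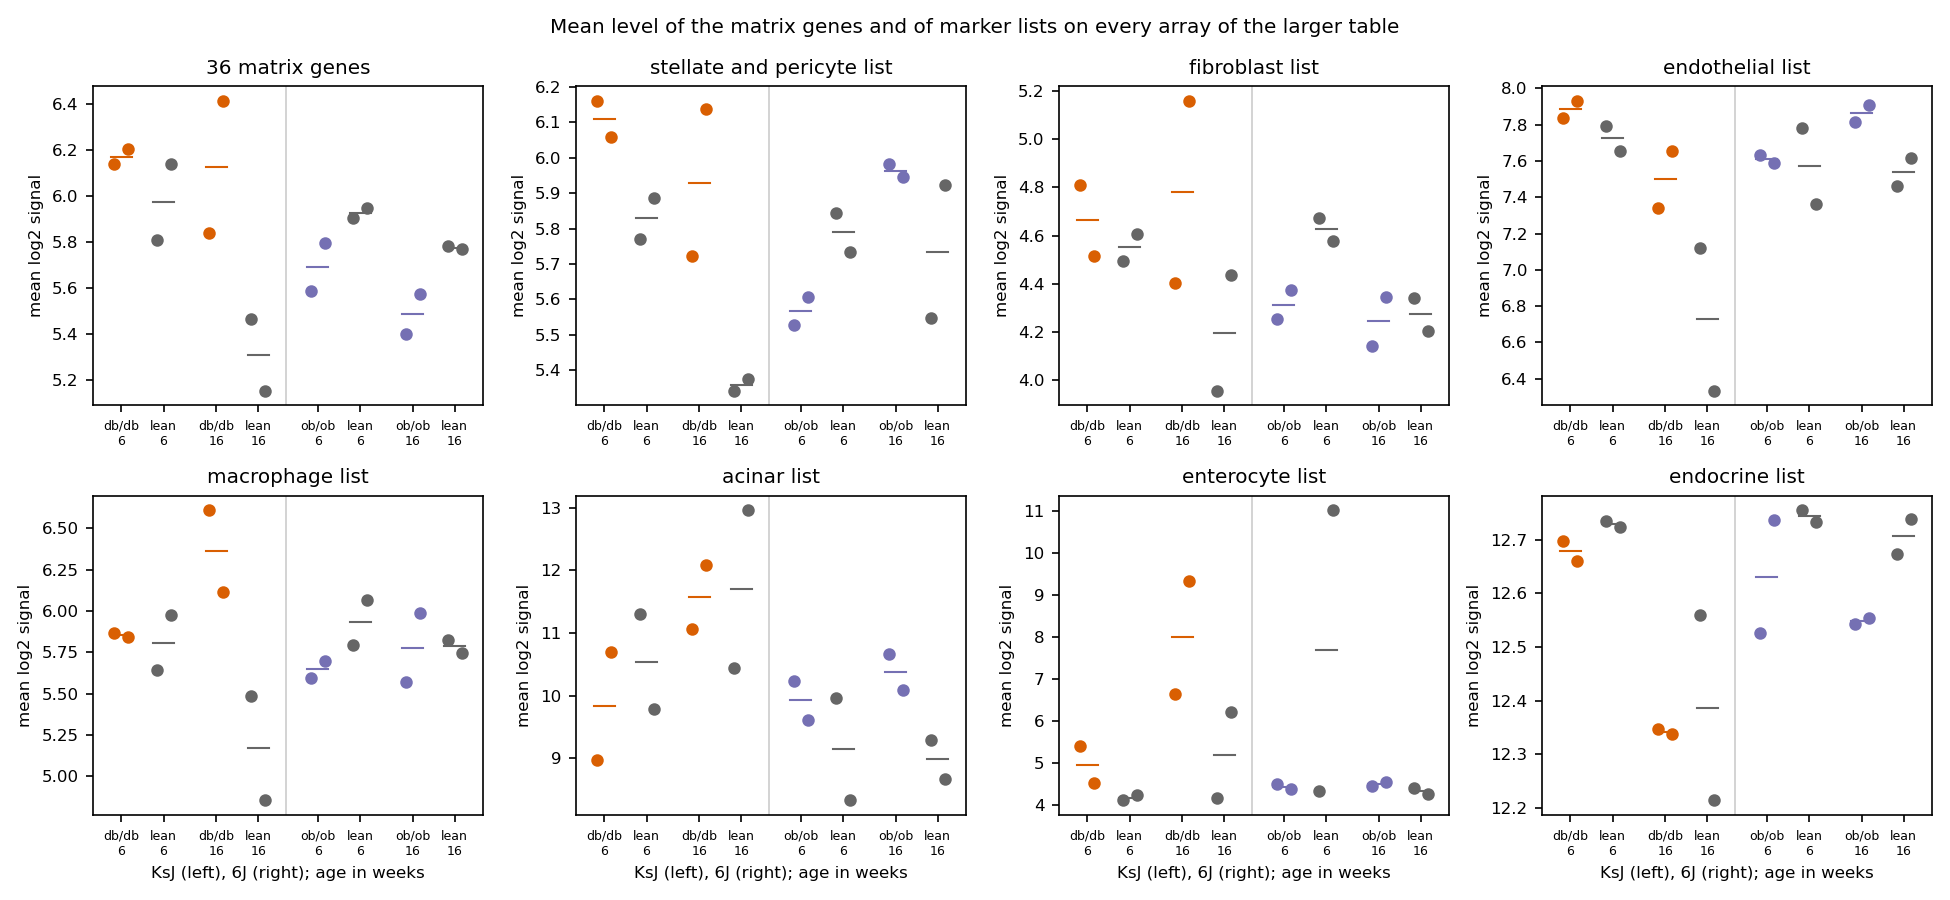
Mean log2 signal on each of the 16 arrays for the 36 tested genes and for 7 marker lists, with 1 point per array, a short line at the mean of each group and the groups along the horizontal axis. Lean KsJ 16-week replicate 2 is the lowest array for the 36 genes (5.15) and for the endothelial (6.33) and macrophage (4.85) lists, and the highest for the acinar list (12.96).

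Genes of the same pathways outside the list were counted in 6 further lists, to be read beside the 5.32% of all genes that rose. Of 12 fibrillar and basement membrane collagens 3 rose in 16-week db/db islets and 0 fell (median 0.66). Col3a1 changed by 2.83 ± 0.27, Col1a1 by 2.90 ± 0.34 and Col1a2 by 1.88 ± 0.47 (limma, adjusted p = 0.002199, 0.007676 and 0.04283). Of 19 TGF-beta receptors, latency proteins and targets 2 rose, namely Tgfbr2, the signalling type II receptor, by 1.26 ± 0.28, and Bambi, a decoy receptor, by 2.83 ± 0.64. The median of this list, 0.17, was below that of all genes and was -0.10 and -0.17 under quantile normalization and median centring. Of 15 integrins 1 rose, Itga2, a collagen receptor subunit, by 1.77 ± 0.31. Of 9 other basement membrane genes Lamb2 rose by 1.07 ± 0.24, and of 13 other metalloproteases and inhibitors Mmp12, the macrophage elastase, rose by 2.51 ± 0.51. Of 19 other proteoglycan, elastic fibre and matricellular genes 5 rose, among them Spon1 (0.85 ± 0.18), Sparcl1 (0.96 ± 0.21) and Ecm1 (1.91 ± 0.42). No gene of these 6 lists fell. In 16-week ob/ob islets none of their genes was called (limma), and the list medians lay between -0.10 and 0.25.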

How the data were processed

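Signals of islet RNA were taken from 2 value tables, which hold log2 values per transcript cluster as deposited by the authors. MAS5, RMA and Partek are named in the submitters' processing notes, with no version, role or order. Each table held 41034 clusters. GEO's platform annotation gave 1 gene for 23521, several for 1814 and no row for 15699. Symbols were updated through Entrez identifiers for 23328 clusters, and clusters without exactly 1 gene were not used. Genes were represented by their cluster of highest mean, and genes under the 30th percentile of the mean were not tested.

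Group means were fitted over all 16 arrays with limma 3.58.1 (R 4.3.3), leaving 8 residual degrees of freedom, and variances were moderated with eBayes. Tests were two-sided, with Benjamini-Hochberg adjustment over the 15526 genes. The smaller table was not tested. The fit was tested on simulated data. Changes with their errors are given for called genes and for up to 8 uncalled genes with the smallest p in each obese-over-lean comparison. Values per array are given for genes of smallest p and others of each role, and up to 3 genes are named for each further list. The alternatives are median centring, quantile normalization, other filters, array weights, other variance models, cluster means, the compared groups alone, the joined tables and each array left out. Covariates for acinar and enterocyte means or for Xist, and leaving out 3 arrays, were added after the data had been seen. The members and lists were chosen with earlier results of these data known. Promoters came from RefSeq (GRCm38.p6), in which 24 of the 39 genes had an entry. matplotlib 3.10.9 (Python 3.11.15) drew the figures.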

Additional observations from a re-analysis of the deposited data

How the results depend on the processing

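No paired analysis was run, since the labels name no matched samples between groups. They carry no replicate numbers either, so replicates 1 and 2 of a group follow the order of the samples. Among the 36 genes, 4 were called in 16-week db/db against lean KsJ islets. A filter at the 50th percentile gave 7, with fewer genes tested and without the share of all genes called set beside it. The count was 1 with quantile normalization, 2 with median centring, 0 with array weights, 9 with acinar and enterocyte covariates, 0 without the 3 arrays rich in acinar or enterocyte RNA, 0 with the compared groups only and 9 with both tables joined. It was 6 with the Xist term. It also moved with the array left out, in fits where 1 array stands for its group and the other groups give the spread. Of all genes 900 were called, and 178 with quantile normalization, 263 with median centring, 0 with array weights, 54 without the 3 arrays, 6 with the compared groups only, 1575 with the Xist term, 1511 with the covariates and 2084 with the tables joined. With the compared groups only, few residual degrees of freedom remain.

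Postn lost its call with array weights (2.22, adjusted p = 0.2453), with the compared groups only (0.2907) and without the 3 arrays (1.52, 0.05891). Over the alternatives its adjusted p ran from 0.000294 to 0.2907. Bgn lost its call under the same 3 settings (0.78 without the 3 arrays), and also with quantile normalization (1.47), without lean replicate 2 (1.37) and without db/db replicate 2 (1.20). Timp2 and Mgp lost their calls under more settings, both scalings among them (Timp2 0.94 and 0.92, Mgp 0.66 and 0.61).

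The difference between the models' 16-week effects had 0 calls, 1 with trend and robust variances, 1 with the 50th-percentile filter, and 0 to 13 with each array left out. The age change of the db/db effect had 0 to 8 and the age change in lean KsJ islets 0 to 16 when each array was left out. For 16-week ob/ob against lean 6J islets the 0 calls became 4 with array weights, 1 without the 3 arrays and 3 with the compared groups only, and stayed at 0 with each array left out. At 6 weeks the ob/ob comparison had 0 to 1. Between lean strains the 6-week count of 0 became 1 with array weights and also moved with the array left out. The 16-week count of 2 became 0 with quantile normalization, array weights, the covariates, without the 3 arrays and with the compared groups only. It was 1 with median centring, 4 with the Xist term, and 0 to 11 with arrays left out. For 6-week db/db against lean islets and the age changes in db/db, ob/ob and lean 6J islets, 0 genes of the list were called under each alternative run. The share of all genes called is not set beside the counts of this paragraph, so they describe the settings and not the list. The cause of these differences was not tested.

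Thy1 in 6-week ob/ob against lean 6J islets was -0.0315 without ob/ob replicate 2 and 1.46 without ob/ob replicate 1, against 0.72 with both. Single-gene values over the 4 obese-over-lean comparisons were kept for called genes and for the uncalled genes of smallest p. Of these values 489 had the same direction and side of the threshold, 25 lost the call, 31 gained it and 1 turned direction. The 489 include genes that were uncalled from the start and stayed so, and do not measure how stable the calls were. Only Postn, Bgn, Timp2 and Mgp had a call to lose, so all 25 losses fell on these genes. With 2 arrays per group a change near the spread between arrays cannot be detected, and Tnc, Lox and Timp1 were too dim to test.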
